A study of Homo sapiens with 10 samples.

Results

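MAL, its relatives MAL2, MALL and PLLP, the flotillins FLOT1 and FLOT2, and the caveola proteins CAV1, CAV2 and PTRF (now CAVIN1) are proteins of membrane rafts. These 9 genes were picked by name, among other gene groups, from earlier results of the same comparison, in which MAL stood out, so their differences between groups are a description, and the counts of calls among them are only set beside the share over the whole array. They are read by 10 of 48144 gene-level probe sets, 2 for PLLP and 1 for each other gene. The cells were of the human line UT-SCC-12a, grown from a squamous cell carcinoma of the skin, a cancer of keratinocytes. In 1 group a lentivirus of the shMIMIC type made the cells express miR-23b-3p stably (5 arrays), and in the control group the lentivirus carried a scrambled RNA (5 arrays). Both groups were therefore stably transduced lines grown in the same medium. The labels give neither the promoter of the construct nor a clone, and do not tell if the 5 samples per group were grown separately. Errors and p-values then measure only the spread between these samples, which may be technical.

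Membrane rafts are small, shifting patches of membrane rich in cholesterol and sphingolipids. MAL, a hydrophobic protein that spans the membrane several times, was found in T cells and myelin and carries cargo to the apical surface of epithelial cells, as shown in a dog kidney line. MAL and its relatives share a membrane-spanning stretch called the MARVEL domain, flotillins line rafts from the inner face, and caveolins with cavins bend rafts into the flask-shaped pits called caveolae. In the annotation of the deposited table all 9 genes carry the cellular component term membrane raft, MAL, MAL2, MALL and PLLP carry the MARVEL domain, and CAV1, CAV2, PTRF, FLOT1 and FLOT2 carry the term caveola.

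The overexpressed RNA is shown with its seed, bases 2 to 8, in capitals, since the seed chooses the messages that a microRNA binds. The sequences come from RefSeq on GRCh38.p14, and miR-23a-3p and miR-23c share the seed, 3 forms in all.
miR-23b-3p, chr9:95085265-95085287, plus strand: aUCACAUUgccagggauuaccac
miR-23a-3p, chr19:13836595-13836615, minus strand: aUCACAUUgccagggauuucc
miR-23c, chrX:20017101-20017122, minus strand: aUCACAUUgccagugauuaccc

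The 250 bases before the start site are shown for MAL and PLLP, the members with the largest positive and the largest negative difference (RefSeq, GRCh38.p14, 5′ to 3′ on the gene's strand). Capitals mark the GC box GGGCGG and its reverse complement CCGCCC, the letters that SP1-type factors are known to bind.
MAL, chr2:95025458-95025707, plus strand: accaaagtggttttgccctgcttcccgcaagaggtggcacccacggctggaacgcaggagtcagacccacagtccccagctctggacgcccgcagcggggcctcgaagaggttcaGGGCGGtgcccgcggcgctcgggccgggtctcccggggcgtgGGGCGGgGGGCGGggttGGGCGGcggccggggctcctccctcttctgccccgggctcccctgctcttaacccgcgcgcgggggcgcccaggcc
PLLP, chr16:57284673-57284922, minus strand: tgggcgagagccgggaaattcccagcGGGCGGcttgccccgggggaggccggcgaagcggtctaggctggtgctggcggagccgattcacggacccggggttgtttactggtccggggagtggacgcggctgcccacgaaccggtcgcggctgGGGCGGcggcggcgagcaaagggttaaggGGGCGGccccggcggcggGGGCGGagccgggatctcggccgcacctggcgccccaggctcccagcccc
Both windows hold 4 GC boxes. Of the 35116 windows of this length before RefSeq start sites, 42.6% hold at least 1 and 13.9% hold 3 or more. MAL's window is 75.2% G and C with 26 CpG pairs, and PLLP's is 76.0% with 32, against medians of 58% and 11 over all windows. RefSeq windows matched 7 of the 9 genes, 11 windows in all, and 10 of these held a GC box, the exception being the more distant of the 2 for MALL. The TATA letters TATAAA (10.7% of all windows), the letters CCAAT (32%) and the E-box CACGTG (6.34%) were in none of the 11 on either strand, and the AP-1 letters TGANTCA (6.57%) were in that of FLOT2 alone. These letter matches are a description of the windows and say nothing of binding.

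All values are log2 RMA values. Because probes differ in brightness, levels of different probe sets are only roughly comparable. They were set only against a common cut of 5 and against probe sets that match no human sequence, and used to pick a gene's brightest probe set. Median values per array lay between 3.14 and 3.19. Arrays of the same group correlated across probe sets with r from 0.991 to 0.994. Of the keratinocyte markers, TP63 stood at 8.63, KRT5 at 8.19, SFN at 10.56 and DSG3 at 9.85, 12 of 17 lay at 5 or above, and KRT14, KRT6A, KRT6B, KRT16 and KRT17 lay below 5. Of the measured markers of fibroblasts, endothelium, T cells, other blood cells and adipocytes, 0 reached 5, and the endothelial marker PECAM1 was not found. The T cell list, relevant since T cells express MAL, averaged 2.54 to 2.72 in the controls and 2.59 to 2.67 with miR-23b-3p, and of the 5 myelin markers only CNP, which many cells express, lay above 5, at 7.20. The spike-in poly-A control RNAs read 5.44 to 5.48 in controls and 5.20 to 5.46 in overexpressing arrays. Overexpressing replicates 1 to 4 read 5.34, 5.375, 5.355 and 5.203, below the lowest control (5.438), and replicate 5 read 5.461. The spike level thus went largely with the group, so adjusting for it cannot fully part it from the group.

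MAL was the member with the largest difference. Its probe set of 18 probes (16882834, hg19 chromosome 2, 95691422 to 95719737, plus strand, the length of the gene) read 7.60, 7.70, 7.46, 7.65 and 7.52 in control replicates 1 to 5. In overexpressing replicates 1 to 5 it read 7.93, 8.14, 8.02, 8.25 and 8.21. All 5 overexpressing arrays lay above all 5 controls, with a gap of 0.23 between the nearest arrays of the groups. The means were 8.11 ± 0.133 (SD, n = 5) and 7.59 ± 0.0969 (n = 5), a log2 difference of 0.524 with a standard error of 0.0781 and a 95% interval of 0.354 to 0.694, or 1.44-fold more MAL RNA signal in the miR-23b-3p cells. In such bulk RNA, more cells with MAL and more MAL RNA per cell cannot be told apart. By size the difference of MAL ranked 78 among all 48144 probe sets and 27 among the 12135 with a mean value of 5 or more. The difference stayed between 0.489 and 0.569 without any single array. Adjusted for each array's poly-A spike level, it was 0.484 (SE 0.111). Among overexpressing arrays, replicate 4 had the lowest spike value (5.203) and the highest MAL value, and replicate 5 had a spike value within the control range (5.461) and the second highest MAL value. The part of the spike level in the MAL difference was not tested further.

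**Figure D1:**
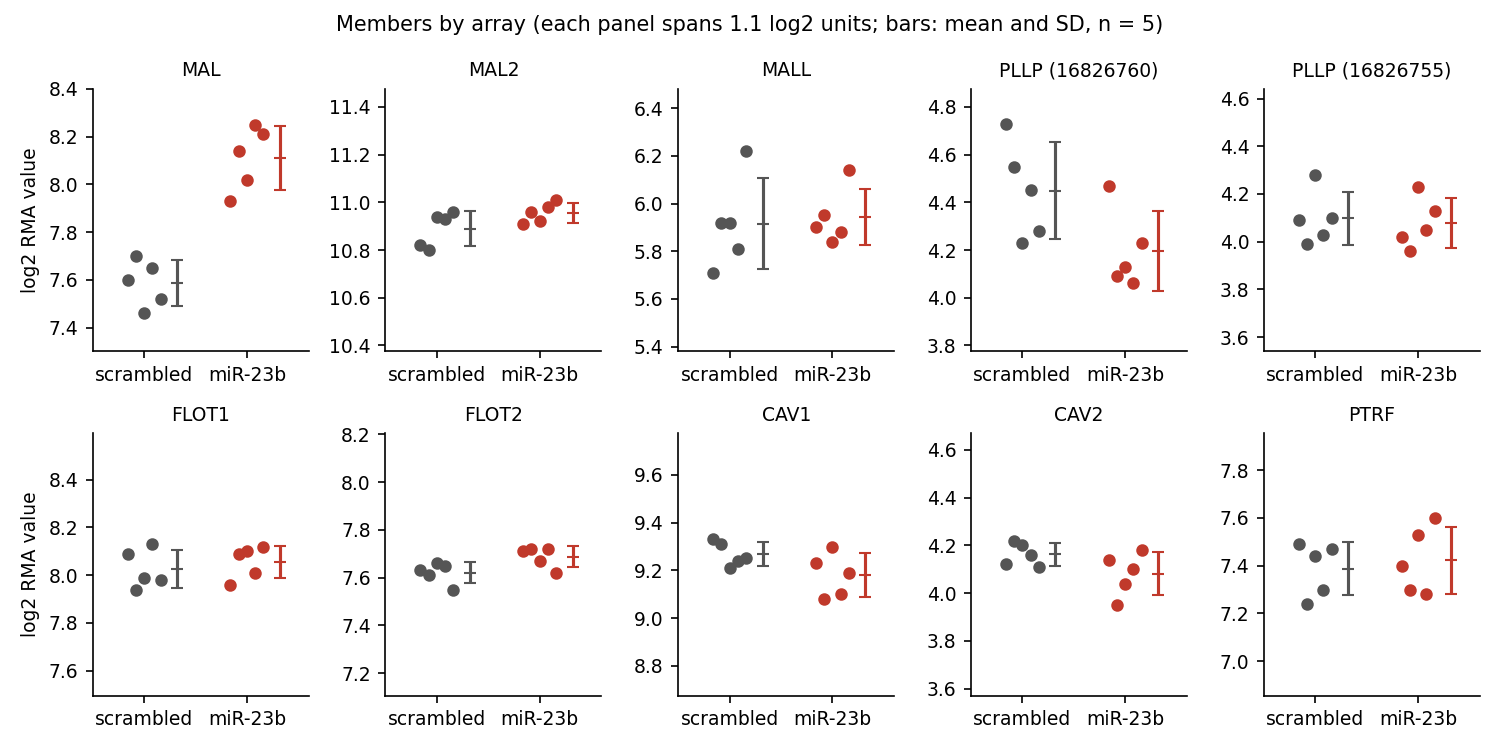
Log2 RMA value of each member probe set (y axis, each panel 1.1 log2 units high) in the 5 scrambled control arrays (grey) and the 5 miR-23b-3p arrays (red). Points are arrays, and the bars beside them give the mean and SD. MAL alone has groups that do not overlap, 7.46 to 7.70 against 7.93 to 8.25.

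The other MARVEL proteins had smaller differences than MAL. MAL2, which moves cargo from the basolateral to the apical face in a human liver line, has a probe set of 26 probes (17072125, hg19 chromosome 8, 120177273 to 120257913, plus strand). This probe set spans 80.6 kb where RefSeq gives the gene 37.3 kb, so it may hold probes outside MAL2. MAL2 read 10.82, 10.80, 10.94, 10.93 and 10.96 in control replicates 1 to 5 and 10.91, 10.96, 10.92, 10.98 and 11.01 in overexpressing replicates 1 to 5. Only 2 of the 5 overexpressing arrays were above every control, and the difference was 0.066 (SE 0.0593, 95% interval -0.0628 to 0.195). MALL, also called BENE, another raft protein of the family, was read by only 9 probes (16901624, hg19 chromosome 2, 110841447 to 110874143, minus strand). MALL spread from 5.71 to 6.22 in controls (median 5.92) and from 5.84 to 6.14 with miR-23b-3p (median 5.90), so the overexpressing arrays lay inside the control range. Its difference was 0.026 (SE 0.0955), with an interval of -0.181 to 0.233.

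PLLP, plasmolipin, a proteolipid of myelin and of epithelia, was low and its 2 probe sets differed from each other. The probe set of the coding transcript (16826760, 23 probes, hg19 chromosome 16, 57290009 to 57318599, minus strand) read 4.73, 4.55, 4.23, 4.45 and 4.28 in control replicates 1 to 5. It read 4.47, 4.09, 4.13, 4.06 and 4.23 in overexpressing replicates 1 to 5. Overexpressing replicates 2, 3 and 4 were below every control, while replicate 1 was above 3 of the 5 controls, so the groups overlapped. The difference was -0.252 (SE 0.107, 95% interval -0.485 to -0.0187), 1.19-fold less, and between -0.32 and -0.182 without any single array. The other PLLP probe set (16826755, 25 probes, 57279992 to 57287550) belongs to a noncoding processed transcript and lies beyond the end of the coding transcript. It overlaps the position of the ARL2BP probe set, so it is not a second reading of the coding transcript. Its difference was -0.020 (SE 0.0749), from 3.99 to 4.28 in controls and from 3.96 to 4.23 in overexpressing arrays. Both PLLP probe sets averaged above 15 of the 23 antigenomic probe sets, which match no human sequence, so PLLP was close to background which limits how well its difference was measured.

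The flotillins, a pair of scaffold proteins that assemble with each other, differed little. FLOT2 (16842834, 24 probes, hg19 chromosome 17, 27206353 to 27224715, minus strand) read 7.63, 7.61, 7.66, 7.65 and 7.55 in control replicates 1 to 5 and 7.71, 7.72, 7.67, 7.72 and 7.62 in overexpressing replicates 1 to 5. With miR-23b-3p 4 of 5 arrays were above every control, and replicate 5 lay within the control range. The FLOT2 difference was 0.068 (SE 0.0554, interval -0.0523 to 0.188), or 1.05-fold, and its residual SD of 0.0434 was the lowest of the members. FLOT1 (17016995, 40 probes, hg19 chromosome 6, 30695188 to 30710510, minus strand) ranged from 7.94 to 8.13 in controls and from 7.96 to 8.12 with miR-23b-3p, a difference of 0.030 (SE 0.0633). FLOT1 has a mixed cross-hybridization type in the file, so some of its probes can also pair with other transcripts, while the other 9 probe sets are of the unique type.

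The differences of the caveolins and the cavin were small, with intervals that include 0. CAV1, the main structural protein of caveolae (17050578, 28 probes, hg19 chromosome 7, 116164839 to 116201239, plus strand), read 9.33, 9.31, 9.21, 9.24 and 9.25 in control replicates 1 to 5 and 9.23, 9.08, 9.30, 9.10 and 9.19 in overexpressing replicates 1 to 5. CAV2, its partner, which needs CAV1 to leave the Golgi (17050538, 38 probes, hg19 chromosome 7, 115927434 to 116148595, plus strand), read 4.12, 4.22, 4.20, 4.16 and 4.11 against 4.14, 3.95, 4.04, 4.10 and 4.18. For each gene 3 of 5 overexpressing arrays lay below every control, replicates 2, 4 and 5 for CAV1 and replicates 2, 3 and 4 for CAV2, and the groups overlapped. The differences were -0.088 (SE 0.0631, interval -0.225 to 0.0492) for CAV1 and -0.080 (SE 0.0627, interval -0.216 to 0.0562) for CAV2. The CAV2 probe set spans 221.2 kb where RefSeq gives the gene 8.8 kb, and its mean level was above 15 of the 23 antigenomic probe sets, so it may hold probes outside CAV2 and reads near background. PTRF, the cavin that coats caveolae (16845158, 26 probes, hg19 chromosome 17, 40554467 to 40575338, minus strand), ranged from 7.24 to 7.49 in controls (median 7.44) and from 7.28 to 7.60 with miR-23b-3p (median 7.40), a difference of 0.034 (SE 0.0821). Adjusted for the poly-A spike level, the PTRF difference was 0.164 (SE 0.103), and that of MALL was 0.154 (SE 0.125).

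**Figure D2:**
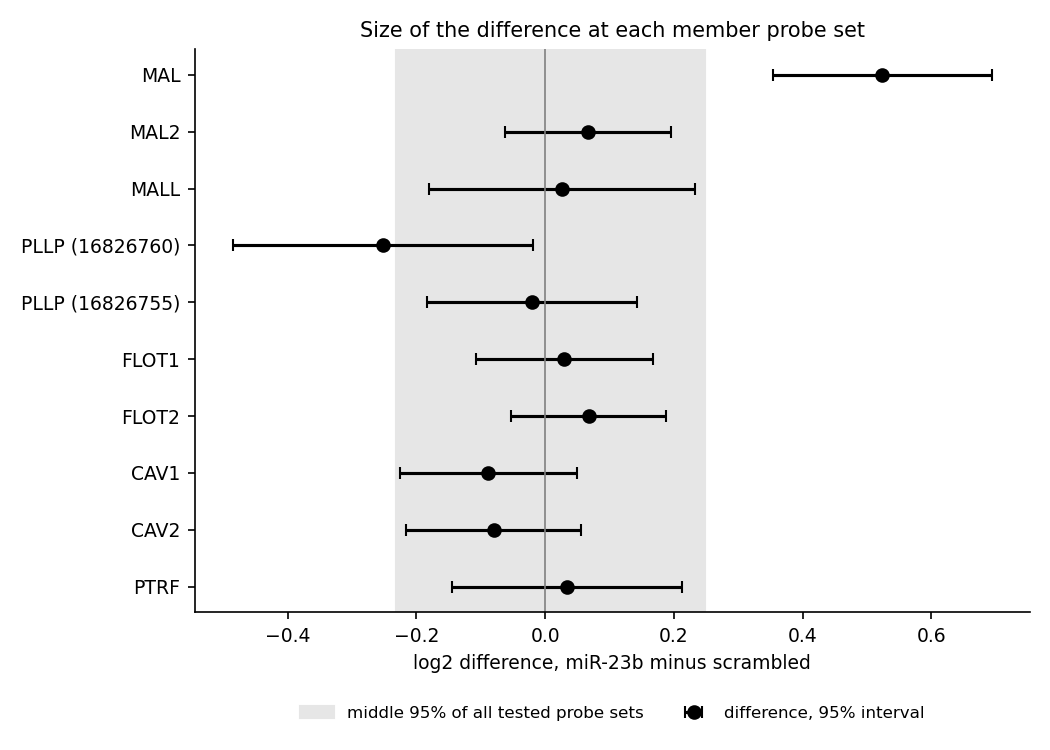
Log2 difference between miR-23b-3p and scrambled control arrays (x axis) for each member probe set, with its 95% interval from limma (n = 5 per group). The grey band holds the middle 95% of the differences of all tested probe sets, -0.232 to 0.248. MAL at 0.524 lies outside the band with its whole interval, PLLP probe set 16826760 at -0.252 lies at its edge, and the other 8 lie within 0.1 of 0. MAL had stood out in earlier results of this comparison, so its place outside the band is a description and no test.

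Over the 10 member probe sets, 6 were higher and 4 lower with miR-23b-3p, with a median difference of 0.028 against 0.002 for all tested probe sets. Limma called 0 of the 10 at an adjusted p of 0.05, where 9 probe sets (0.0187%) were called among all tested, and a test without variance moderation, adjusted the same way, called 0 of the 10 as well. At an unadjusted p under 0.05 there were 2 of the 10, MAL and PLLP probe set 16826760, against 6.63% of all tested. Groups did not overlap for MAL alone of the 10 members, and for 1.35% of all tested. Since the genes were chosen from this comparison, nothing is read from these counts.

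Among 204 genes with the annotation term membrane raft, each read at its brightest probe set, MAL had the largest difference of either sign. The term was looked up after the values had been seen. The 195 raft genes other than the 9 members were split into 94 higher and 99 lower with a median of -0.002, and limma called 0 of them. Groups of those 195 did not overlap for 6 genes, CTSD, CD24, SDC4, VDAC1, TGFBR2 and PDE2A, beside 1.35% of all tested probe sets. Of the 24 genes with the MARVEL domain, MAL again had the largest difference. The 20 genes other than MAL, MAL2, MALL and PLLP were 13 higher and 7 lower with a median of 0.043, and 0 were called. Outside these 4 genes no MARVEL gene had groups that did not overlap. Larger differences than that of MAL stood under the other 2 terms looked up. Among 278 genes of the apical plasma membrane, MAL included, NRG1, a growth factor gene, fell (-0.608, SE 0.0806, adjusted p = 0.0398). Among the 71 genes of the term caveola, which does not include MAL, CDH13, a cadherin held by a GPI anchor, fell (-0.628, SE 0.0854, adjusted p = 0.0406).

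Genes that work with rafts were followed in 7 lists, with 123 of 124 listed genes measured. Limma called 0 of the 123 and the test without variance moderation 0, against 0.0187% of all tested for limma, and 15 had an unadjusted p under 0.05, against 6.63% of all tested. The median difference was 0.022, with 72 genes higher and 49 lower. The MARVEL domain family outside the members was 15 of 22 higher with a median of 0.055. Its smallest p belonged to SYNGR3, a synaptic vesicle protein near background at 4.32 in controls and 4.63 with miR-23b-3p, then to MARVELD1 at 0.234 (SE 0.0777, adjusted p = 0.643) and to MYADM, a raft protein of myeloid and other cells, at 0.202 (SE 0.0766, adjusted p = 0.699). A dimmer second probe set of MYADM stood at 0.394 (SE 0.112, adjusted p = 0.521). Genes of the caveola coat and neck were 6 higher and 7 lower with a median of -0.006. The membrane-shaping ATPase gene EHD1, near background with a mean value of 4.73, stood at 0.206 (SE 0.083, adjusted p = 0.717). The membrane-cutting dynamin DNM2 stood at 0.118 and the muscle caveolin CAV3, also near background, at -0.134.

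Of 25 genes of sphingolipid and glycolipid synthesis, 19 were higher and 5 lower with a median of 0.032, and none passed the test. SMPD1, the lysosomal sphingomyelinase, went from a mean of 6.10 to 6.37, a difference of 0.264 (SE 0.0924, adjusted p = 0.665). SPTLC3, a subunit of the enzyme that starts sphingolipid synthesis, stood at 0.214 (SE 0.0751, adjusted p = 0.665) and the neutral sphingomyelinase SMPD3 at 0.178 from a level near background. Among 15 genes of proteins held in the membrane by a GPI anchor, a class that gathers in rafts and reaches the apical surface, 9 were higher with a median of 0.014. CD24, a small mucin-like surface protein, lay between 10.30 and 10.40 in controls and between 10.56 and 10.76 with miR-23b-3p, a difference of 0.262 (SE 0.0607, adjusted p = 0.344). NT5E, the surface enzyme that makes adenosine, lay between 6.38 and 6.60 and between 6.70 and 6.92, also 0.262 (SE 0.0659, adjusted p = 0.424). CD55, which shields cells from complement, stood at 0.176 (SE 0.060, adjusted p = 0.652). Groups of CD24 and NT5E, 2 of the 15 genes, did not overlap, beside 1.35% of all tested probe sets. The file places the CD24 probe set on chromosome Y, where CD24 has a near-identical copy, so its signal cannot be assigned to a single copy.

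Polarized transport genes were 13 higher and 11 lower with a median of 0.012. The 3 with the smallest p were lower: PIGR, the receptor that carries antibodies across epithelia and is near background here, at -0.206 (SE 0.0778, adjusted p = 0.699), the aminopeptidase ANPEP at -0.178 (SE 0.0765) and TPD52L2, a relative of the MAL2 partner TPD52, at -0.098 (SE 0.0582). The largest positive value of that list was 0.110, for the mucin MUC1. Raft kinases and adaptors were 7 higher and 8 lower with a median of -0.004. CBL, a ubiquitin ligase of receptor signalling, had groups that did not overlap, 7.35 to 7.49 against 7.52 to 7.68, a difference of 0.158 (SE 0.0581, adjusted p = 0.680). This held for CBL alone of the 15 genes, beside 1.35% of all tested probe sets. CSK, the kinase that restrains SRC kinases, stood at 0.104, and SORBS2 at -0.108 at a probe set near background, its other probe set standing at 0.156. The stomatin and prohibitin family, which shares a domain with flotillins, had a median of -0.024, with STOML3 at 0.140 near background and the prohibitins PHB1 at -0.076 and PHB2 at -0.070. Over the 7 lists 9 genes had more than 1 probe set, and in 3 of these the signs differed.

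**Figure D3:**
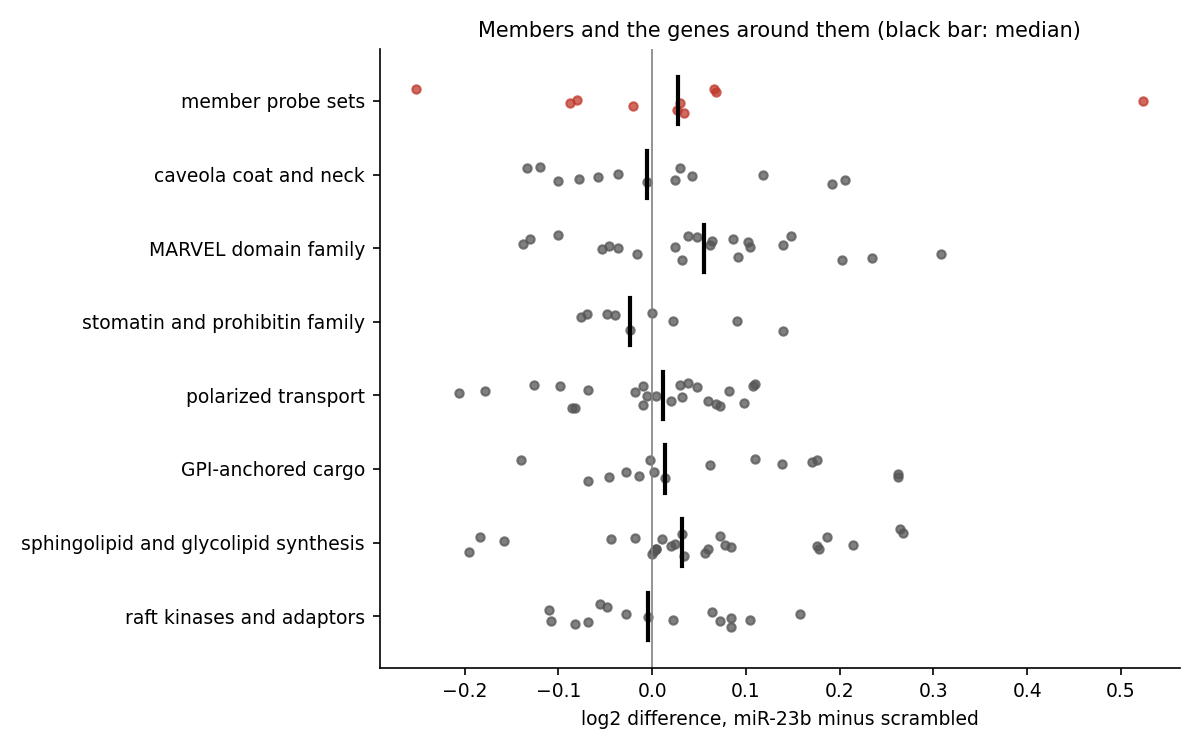
Log2 difference between miR-23b-3p and scrambled control arrays (x axis) for the 10 member probe sets (red) and for the genes of 7 lists around them (grey, 1 probe set per gene), with black bars at the medians. MAL at 0.524 stands to the right of every other point, the highest point of the lists being SYNGR3 at 0.308, and list medians lie between -0.024 and 0.055.

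Within the groups the members had no common pattern over the arrays. MAL correlated with FLOT2 at r = 0.59 over the 10 arrays and at -0.08 once each group's mean was taken out, and with CAV1 at -0.61 and -0.30. CAV1 and CAV2, neighbours on the chromosome, correlated at 0.45 and 0.22. The strongest values after removing group means were those of FLOT2 with MALL at -0.74, PLLP probe set 16826760 with MAL2 at -0.71, and PLLP probe set 16826755 with PTRF at 0.70. The 2 PLLP probe sets correlated with each other at -0.38 by this measure. Each value rests on 10 arrays, which may share their preparation, and is a description.

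Of 10079 probe sets with 1 symbol, a mean value of at least 5 and no member gene, 24 followed MAL over the 10 arrays with r of 0.9 or more and 16 ran opposite at the same strength. The closest was LDAF1, a lipid droplet assembly factor, at r = 0.941 (0.74 with group means removed), which stood at 5.85 in controls and 6.07 with miR-23b-3p. It was followed by LMO7, a LIM protein of actin and cell junctions, at 0.938 (0.57), the matrix protein gene EFEMP1 at 0.926 (0.38) and RAB15, a GTPase of endosome recycling, at 0.921 (0.44). The most opposite were DCBLD2, a surface receptor-like protein, at -0.955 (-0.61), which went from 8.86 to 8.55, and the fibrillin gene FBN2 at -0.951 (-0.62), which went from 7.41 to 7.08. In all 6 genes the 2 groups did not overlap, so the likeness includes the difference between groups, and none was called (adjusted p 0.213 to 0.834). MAL had the widest change of the 7, and EFEMP1 followed it with a difference of only 0.080.

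**Figure D4:**
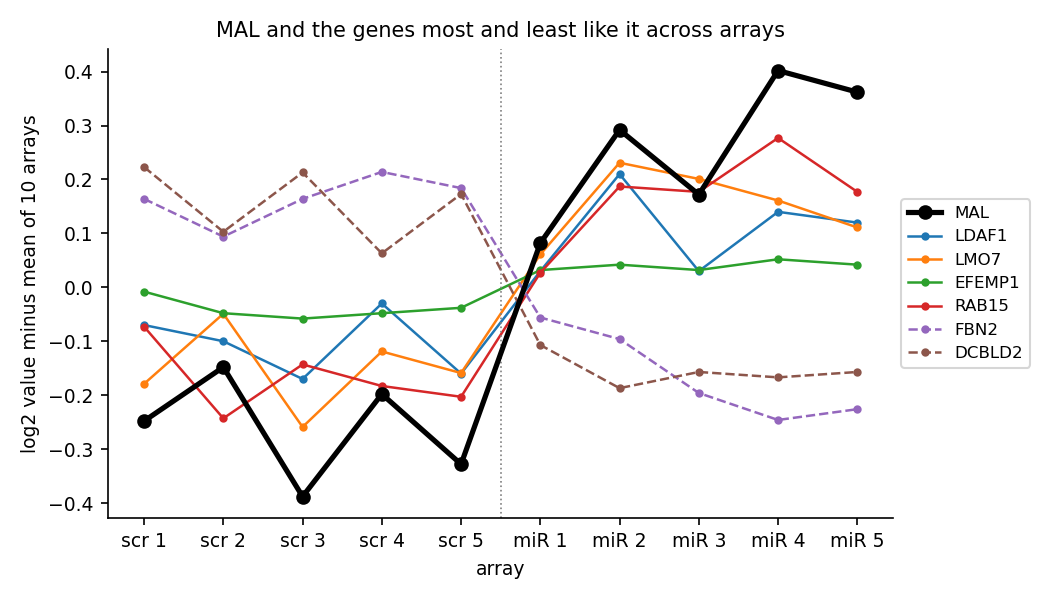
Log2 value minus the mean of the 10 arrays (y axis) for MAL (black), the 4 genes most like it (solid) and the 2 most opposite (dashed) in 5 scrambled control (scr) and 5 miR-23b-3p (miR) arrays. Numbers are replicate labels without an order. All 6 genes separate the groups, with DCBLD2 and FBN2 in the opposite direction to MAL.

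Genes beside MAL on chromosome 2 differed less than MAL. Within 250 kb of the MAL probe set, 10 other probe sets with a symbol differed by -0.024 to 0.140, and limma called 0 of them. The 2 with the smallest p were KCNIP3, a calcium-binding protein of potassium channels, at 0.140 (SE 0.084, adjusted p = 0.822) and the zinc finger gene ZNF2 at 0.108 (SE 0.104, adjusted p = 0.892). Around CAV1, 5 of 5 such neighbours were lower, by 0.052 to 0.152 on the log2 scale, and 2 of the 5 had a mean value of 5 or more. Around each of the other members the neighbours were split in sign and none was called. Groups did not overlap for CCN3, 1 of 6 neighbours of MAL2 (-0.256, SE 0.0711, adjusted p = 0.504). The same held for PHF12, 1 of 23 neighbours of FLOT2 (0.176, SE 0.0581, adjusted p = 0.639). Among all tested probe sets the share was 1.35%.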

How the data were processed

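RNA of 5 control and 5 miR-23b-3p samples was hybridized to Affymetrix HuGene-2_0-st arrays. The deposited table holds log2 RMA values per probe set, made by the authors with RMA and Transcriptome Analysis Console, per the submitters' processing notes, and its annotation names hg19, per the file headers. The authors' deposited fold, a signed linear ratio, was not used as a result: the linear ratio of group means from the log2 values matched it to a tolerance of 0.001 in 53617 of 53617 probe sets. A further 14 columns of values belong to no sample analysed here and were not used.

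Of the probe sets, 48144 (44629 main and 3515 rescue) were tested and 5473 controls and others left out. Symbols came from the file and were updated through Entrez identifiers. Limma 3.58.1 in R 4.3.3 fitted group on all 10 arrays and p-values were adjusted by Benjamini and Hochberg's method across the 48144 at 0.05. The procedure was tested on simulated data. With 5 arrays per group, array number limits the precision.

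The members, gene lists and tests were chosen with earlier results of these data known, and the annotation terms after seeing the values. In each list the text names the 3 genes with the smallest p, for likeness the 4 highest and 2 lowest correlations, and for neighbours the 2 smallest p. CMTM1 and the endothelial marker PECAM1 were not found under their symbols. Markers, neighbours' counts and genes named only because their groups did not overlap fall outside that rule. So does MUC1, named for the largest positive value of its list. All of these were chosen after their values were seen. Alternatives were other centring, quantile normalization, array weights, a variance trend, a filter on dim probe sets, a poly-A spike covariate, uniquely hybridizing probe sets, a test without variance moderation, the replicate number as a block and leaving out each array. Seed sites in transcripts were not analysed here.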

Additional observations from a re-analysis of the deposited data

How the results depend on the processing

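Limma called 9 probe sets over the whole array and 0 member probe sets. The whole-array count was 26 with an intensity trend, 2 with the poly-A spike covariate, 5 at a threshold of 0.01 and 5 to 8 without any single array (5 without control replicate 2, 3 or 5 or miR-23b replicate 5). With the replicate number as a block it was 1. Samples sharing a number did not deviate together (r from -0.101 to 0.0428, 0 of 5 pairs above 0.1). The block moved the SE of members both ways, from 0.107 to 0.0836 for PLLP probe set 16826760 and from 0.0633 to 0.077 for FLOT1. The labels do not say if the numbers pair the samples, and these values do not settle it. Median centring, quantile normalization, array weights, a test without variance moderation, the filter on dim probe sets and uniquely hybridizing probe sets gave 8 to 13. The number of member probe sets called was 1, MAL, with the intensity trend and with uniquely hybridizing probe sets, and 0 without any single array. Without single arrays the difference ranged from 0.489 to 0.569 for MAL, 0.0435 to 0.0835 for MAL2, -0.0255 to 0.102 for MALL, -0.32 to -0.182 for PLLP probe set 16826760, -0.058 to 0.0255 for PLLP probe set 16826755, 0.0085 to 0.056 for FLOT1, 0.0505 to 0.085 for FLOT2, -0.118 to -0.063 for CAV1, -0.104 to -0.047 for CAV2 and -0.0105 to 0.0695 for PTRF. MALL, PTRF and PLLP probe set 16826755 thus changed sign. With the poly-A spike covariate PTRF moved to 0.164, MALL to 0.154, FLOT1 to 0.081, FLOT2 to 0.0287 and PLLP probe set 16826755, with a change of sign, to 0.0194; the cause was not tested. The medians of the GPI-anchored list and of polarized transport changed sign to -0.002 and -0.004 under median centring. That of the caveola coat and neck changed to 0.009 over every probe set and to 0.024 over probe sets with a value of 5 or more, and that of raft kinases and adaptors to 0.018 over the latter. The GPI median was 0.11 over probe sets with a value of 5 or more. Members near background, PLLP and CAV2, are limited by signal. MALL averaged above 21 of the 23 antigenomic probe sets, and the remaining members above all 23. The antigenomic median per array was 2.29 to 2.44. Listed genes called near background had a mean value below 5, and no antigenomic count was made for them.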
